A study of Danio rerio with 16 samples.

Results

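The 925 regions described here were accessible chromatin peaks that differed between haemogenic endothelium (HE) and aortic roof endothelium (ARE) and lay far from any annotated promoter. They were chosen from both deposited lists of differential ATAC-seq peaks as the peaks annotated as intergenic and more than 150 kb from the nearest transcriptional start site (TSS). They made up 9.77% of the 9466 listed peaks and 15.6% of the 5940 intergenic ones. Within those lists, whose peaks had been selected for a difference in accessibility, only annotation and distance chose them.

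ATAC-seq uses the Tn5 transposase to cut and tag open chromatin, so that the read count over a region reports how accessible it was. Cells came from wild-type zebrafish embryos carrying both TgBAC(runx1P2:Citrine) and Tg(kdrl:mCherry), staged to 28 to 30 h post fertilisation. The first transgene is a bacterial artificial chromosome (BAC) holding both runx1 promoters with Citrine placed behind the proximal promoter, P2, and the second marks endothelium. Between 2000 and 3000 cells from pooled embryos were sorted per library. DP-R1hi cells, positive for mCherry with high Citrine, stand for the HE of the aortic floor, whereas DP-R1lo cells, with low Citrine, stand for the ARE together with intersomitic sprouts. Both populations carried both transgenes. The populations were separated by a gate on the brightness of 1 reporter and not by position in the aorta.

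Of 3 replicates per population, the authors removed 1 and kept 2, and the lists give only the mean of each population. No SD, interval or test across replicates could therefore be computed, library depth is unknown, and every value below is a mean of 2 libraries without an error. Accessibility is given as mean concentration, the log2 of the mean normalised read number in a peak, and each difference is DP-R1hi minus DP-R1lo on that log2 scale. The peaks in the lists had already passed an edgeR comparison by the authors and a minimum difference of 0.7 in either direction, so that all of them differed by construction. The lowest listed mean was -0.14 in DP-R1hi and -0.27 in DP-R1lo. Where a population stood at that value, the size of the difference was set by the floor, which is stated for single peaks, while ranges over several peaks can include such values.

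Enhancers can act on promoters over long stretches of DNA, and many genes that steer development sit beside long regions without other coding genes, known as gene deserts, which hold several enhancers for different tissues. The nearest TSS to a distal peak is therefore a label for its position and need not be the gene it acts on. HE is the endothelium that gives rise to haematopoietic stem cells, and Runx1 is the transcription factor required for that step. Arterial endothelium depends on Notch, ephrin and VEGF signalling.

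The name gene desert did not hold for most of the intervals in which it could be checked. For each peak, a window reaching as far on both sides as its nearest TSS contains no TSS of the transcript set that the authors' annotation used, and overlapping windows joined into 422 TSS-free intervals. Their median minimum length was 455 kb, 46 were longer than 1 Mb, and the longest, with crestin and znf1137 on chromosome 4, spanned at least 3144 kb. In a newer zebrafish assembly, GRCz12tu, gene order could be read for the 101 intervals, holding 385 of the 925 peaks, whose 2 flanking genes were both placed with at most 30 protein-coding genes between them. In 96 of these intervals at least 1 protein-coding gene lay between the flanking genes, with a median of 3, and only 5 intervals held none. Of the 444 genes in between, 390 (87.8%) had only model transcripts, while 30 intervals (29.7%) held a gene with a curated transcript. Left out were 8 more intervals whose placed flanking genes had more than 30 protein-coding genes between them. Among them were the longest one, with 69 between znf1137 and crestin, and that of tbc1d19 and zgc:158420, with 39. Whether gene order is the same in both assemblies there was not determined. The 5 intervals with no gene between were bounded by mef2cb and mblac2, by tbx2a and ppm1db, by dtx2 and tmem132e, by dimt1l and skia, and by top2a and raraa. Only neighbourhood was compared between assemblies, so that whether a given peak lies inside one of these genes was not determined. The peaks are therefore called distal intergenic peaks from here on.

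A further group of peaks had runx1 in its neighbourhood. No listed peak was annotated to runx1, yet 14 listed peaks on chromosome 1 had the microRNA gene mir459 as their nearest TSS, and in GRCz12tu mir459 lies inside runx1. All 14 were upstream of mir459, between 39 and 187 kb from it, at lower coordinates of the authors' assembly. In GRCz12tu most of runx1 also extends to the lower-coordinate side of mir459. The orientation of the locus was not compared between the assemblies, so whether the peaks lie on that side of mir459 was not determined. Of these peaks, 13 (92.9%) were more open in DP-R1hi and 1 was more open in DP-R1lo.

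Of the mir459 group, 3 peaks lay beyond 150 kb. The peak at chr1:1253389-1254663, 174 kb from mir459, had a mean concentration of 13.03 in DP-R1hi and 10.98 in DP-R1lo, a difference of 2.05. It ranked 3 among all listed peaks in DP-R1hi and 9 in DP-R1lo. Its read number, not corrected for its width of 1275 bp, was thus among the highest in both populations. The peak at chr1:1239756-1241231, 187 kb away, had 6.30 in DP-R1hi and stood at the lowest value in DP-R1lo. The peak at 151 kb had 6.06 in DP-R1hi and 2.28 in DP-R1lo, a difference of 3.78. All 3 thus had the higher mean in the population with more Citrine. The other 11 peaks, from 39 to 120 kb, showed the same direction apart from the one at 100 kb, which stood at the lowest value in DP-R1hi and at 4.79 in DP-R1lo. As the reporter BAC carries runx1 sequence in both populations, reads from the transgene and from the gene itself cannot be told apart.

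**Figure D1:**
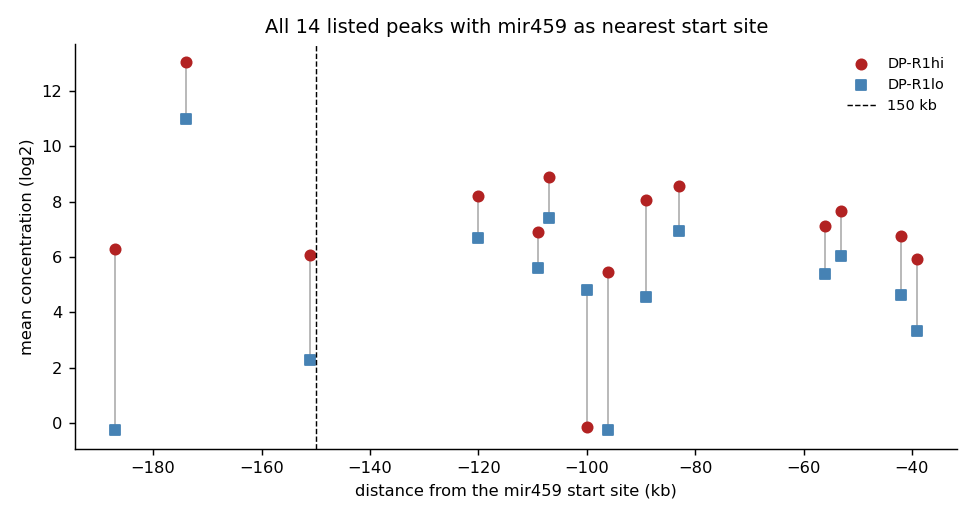
Mean concentration (log2) in DP-R1hi (circles) and DP-R1lo (squares) of the 14 listed peaks nearest to mir459, against distance from its start site in kb, with the 150 kb limit dashed. In 13 peaks the DP-R1hi mean is the higher, and the peak at 174 kb reaches 13.03 against 10.98.

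Over all distal intergenic peaks, 400 (43.2%) were more open in DP-R1hi and 525 (56.8%) in DP-R1lo. Across all listed peaks 40.8% were more open in DP-R1hi, so the direction of the distal peaks was close to that of the lists as a whole. Among distal peaks more open in DP-R1hi, the median mean concentration was 6.37 in DP-R1hi and 3.15 in DP-R1lo, with a median difference of 3.18 (quartiles 1.95 and 4.45). In those more open in DP-R1lo, the medians were 5.71 in DP-R1lo and 1.09 in DP-R1hi, and the median absolute difference was 4.30 (quartiles 2.82 and 5.10). The ARE-specific differences were thus larger, but more of them ended at the floor. DP-R1hi stood at its lowest value in 216 (41.1%) of the 525 peaks, against 36.6% of all listed peaks of that direction. In the other direction, DP-R1lo stood at its lowest value in 79 (19.8%) of the 400 peaks, against 18.8%. With these left out, the median absolute differences were 2.7 over 321 HE-specific peaks and 3.05 over 309 ARE-specific peaks, and the share more open in DP-R1hi was 51.0%, beside 46.9% of all 6692 listed peaks off the floor.

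**Figure D2:**
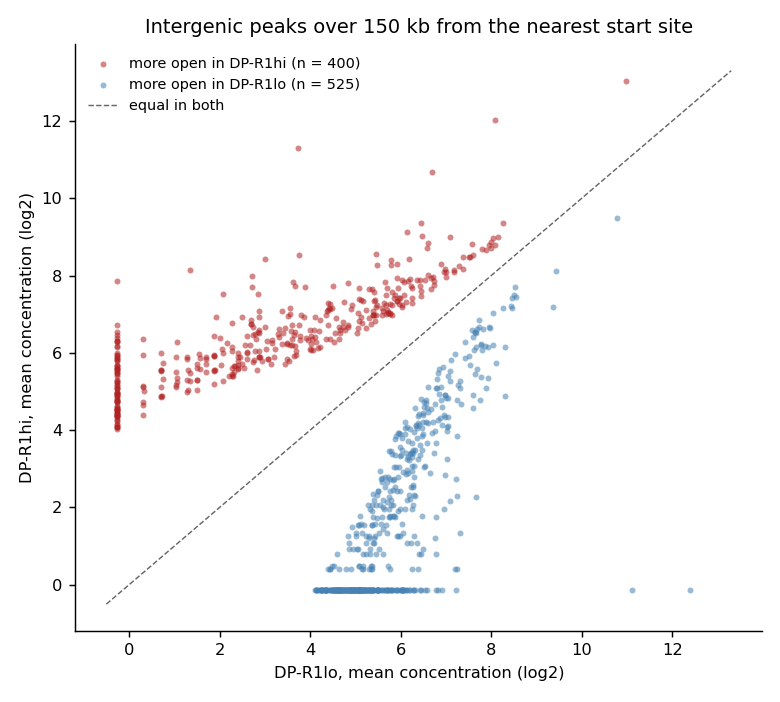
Mean concentration (log2) of each of the 925 distal intergenic peaks in DP-R1lo (horizontal) and DP-R1hi (vertical), with the line of equal values dashed. Peaks at the lowest value form the line at -0.14 for DP-R1hi (216 peaks) and at -0.27 for DP-R1lo (79 peaks), and the empty band around the dashed line is the authors' minimum difference of 0.7.

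A difference of at least 2 was found in 765 distal peaks (82.7%), against 76.0% of all listed peaks. Compared with the 5015 intergenic peaks nearer to a TSS, the distal peaks differed slightly more between the populations and were slightly less open. The median absolute difference of HE-specific peaks was 3.18 beyond 150 kb and 2.73 nearer, and that of ARE-specific peaks 4.3 and 3.9. In the population where the peak was more open, the median concentration was 6.37 against 6.56 for HE-specific and 5.71 against 5.93 for ARE-specific peaks. Within narrow classes of concentration the contrast differed in size and sign. For HE-specific peaks with 5 to 6 in DP-R1hi the median difference was 4.11 in 106 distal peaks and 4.07 in 487 nearer ones, and with 6 to 7 it was 2.87 in 118 and 2.51 in 538. For ARE-specific peaks of the same class in DP-R1lo it was 4.68 in 197 distal and 5.09 in 1041 nearer peaks, and with 6 to 7 it was 2.93 in 138 and 2.96 in 778. What part the lower concentration had in the overall contrast was not tested. These contrasts are descriptions over peaks, which are not replicates.

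Distance beyond the limit changed direction little. The share more open in DP-R1hi was 44.5% of 663 peaks at 150 to 300 kb, 41.2% of 170 at 300 to 500 kb and 38.0% of 92 beyond 500 kb. The median difference of HE-specific peaks over the same classes was 3.06, 3.40 and 3.71, against 2.65 within 10 kb of a TSS. For ARE-specific peaks it was 4.29, 4.01 and 4.70, against 3.65 within 10 kb. The median therefore did not go up steadily in the ARE direction, and the farthest class, with 35 HE-specific and 57 ARE-specific peaks, was the smallest.

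**Figure D3:**
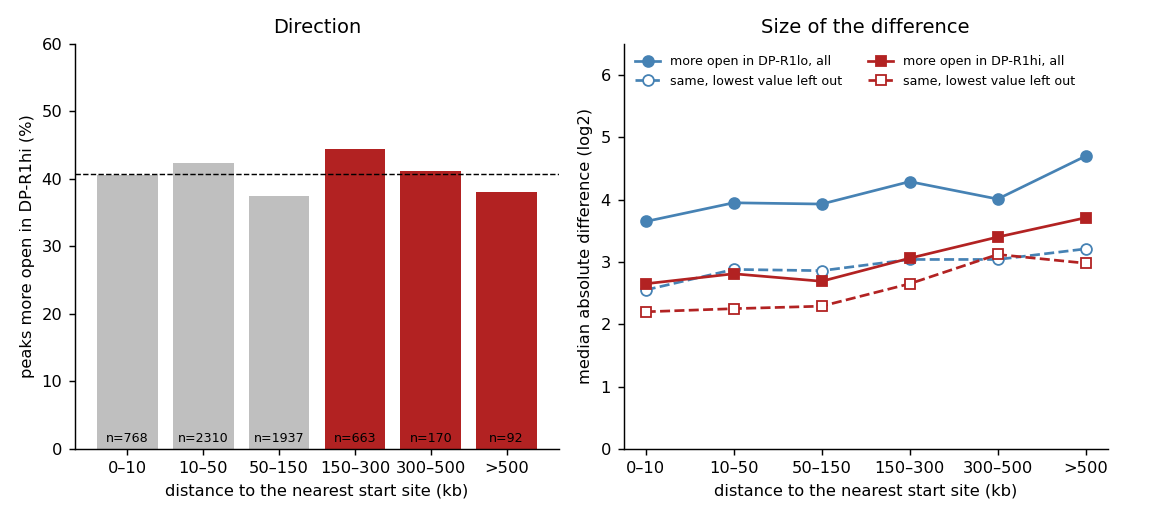
Left, percent of intergenic peaks more open in DP-R1hi by distance to the nearest start site in kb (grey up to 150 kb, red beyond), with 40.8% of all listed peaks dashed. Right, median absolute log2 difference by direction, for all peaks (filled) and without peaks at the lowest value (open), which for HE-specific peaks was 2.2 within 10 kb and 2.65, 3.12 and 2.98 in the 3 classes beyond 150 kb.

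Width did not set the distal peaks apart, with a median of 451 bp against 482 bp for nearer intergenic peaks and 40 peaks (4.32%) wider than 1 kb against 4.95%. Of the distal peaks, 43.2% lay upstream of the nearest TSS and the rest downstream, against 58.4% upstream among nearer intergenic peaks. Among all listed peaks, which include those inside genes, 43.1% lay upstream. At the limit, srsf4 (-2.64, 150164 bp), bzw1a (-5.17, 150333 bp, DP-R1hi at the lowest value) and brd2b (4.27, 150364 bp) were the first peaks inside. The last ones outside were nearest to nsmce4a (-5.83, 149895 bp, also at the lowest value), srek1 (-2.04, 149602 bp) and mut (2.44, 149314 bp).

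Some single peaks were extreme. On chromosome 7, a region of 12919 bp near zgc:158420 had 12.39 in DP-R1lo and the lowest value in DP-R1hi. On chromosome 8, a region of 16234 bp near pbx3b, a homeodomain cofactor of Hox proteins, had 11.10 in DP-R1lo and again the lowest value in DP-R1hi. Both were far wider than the median and were the only ARE-specific distal peaks with a difference beyond -7.36. The next were nearest to leprot (-7.36), sema4c (-7.06) and mesdc2 (-6.96), each with DP-R1hi at the lowest value.

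Among HE-specific peaks, the largest difference was near psip1, which encodes a chromatin-binding protein, on chromosome 1 (8.13, with 7.86 in DP-R1hi and the lowest value in DP-R1lo). A neighbouring psip1 peak had 8.15 in DP-R1hi and 1.34 in DP-R1lo, a difference of 6.81, and a further one 5.45 and the lowest value, so that all 3 distal psip1 peaks, between 173 and 195 kb from the TSS, were more open in DP-R1hi. A chromosome 4 peak near LOC100008037 had 11.31 in DP-R1hi and 3.74 in DP-R1lo. The peaks near kif18a, a mitotic kinesin (7.0), and mvb12ba, an endosomal sorting subunit (6.80), stood at the lowest value in DP-R1lo.

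Among the 6 farthest peaks, 3 in each direction, the differences ran from -5.23 to 6.58. Their distances hold for the authors' transcript set only. In GRCz12tu many genes lie between crestin and znf1137 and between tbc1d19 and zgc:158420. The farthest lay 1305 kb upstream of zgc:153522 on chromosome 4 with 5.09 in DP-R1lo and the lowest value in DP-R1hi. In the same direction, peaks 1147 kb from zgc:158420 and 1077 kb from tbc1d19 on chromosome 7 differed by -4.88 and -4.72, the latter with DP-R1hi at the lowest value. In the other direction, a peak of 5429 bp located 1159 kb from zgc:173619, the widest HE-specific one, had 10.68 in DP-R1hi and 6.69 in DP-R1lo. Those 1104 kb from fmr1, whose product binds RNA, and 1098 kb from crestin, a gene known for expression in the neural crest, had 4.86 and 6.31 in DP-R1hi with the lowest value in DP-R1lo.

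At the other end, 89 distal peaks (9.62%) had a mean of at least 6 in the less open population, against 12.6% of nearer intergenic peaks. Besides the mir459 peak, the HE-specific peaks open in both populations included those near aoc1 (9.36 in DP-R1hi and 8.26 in DP-R1lo) and zgc:158343 (8.99 and 8.15). For ARE-specific peaks these were nearest to tctex1d1 (9.50 in DP-R1hi and 10.78 in DP-R1lo), srek1 (8.11 and 9.42) and spata6 (7.70 and 8.53). Together with the mir459 peak, their differences ran from -1.31 to 2.05, whereas the dock4b peak, with 12.03 and 8.09, was also open in both and differed by 3.94.

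Distal peaks often came in groups. Of the 422 TSS-free intervals, 207 held a single distal peak and 215 held several, together 718 peaks. In 36 of the latter all peaks were HE-specific, in 56 all were ARE-specific and in 123 both directions occurred. Neighbouring peaks of 1 interval had the same direction in 77 of 98 pairs (78.6%) within 10 kb, in 109 of 160 pairs (68.1%) 10 to 50 kb apart and in 124 of 245 pairs (50.6%) farther apart. Close neighbours among the distal peaks thus shared a direction more often than distant ones, and among intervals with several peaks the mixed ones were the commonest. The same shares were not computed for nearer intergenic peaks or for all listed peaks. Whether this is particular to distal peaks was therefore not tested.

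The interval with most distal peaks, on chromosome 14 between lect2l and rnasel3, held 15 over 883.7 kb, of which 4 were HE-specific and 11 ARE-specific. Here 6 consecutive ARE-specific peaks between 714 and 779 kb from lect2l differed by -5.85 to -2.90, and 1 more at 787 kb stood at the lowest value in DP-R1hi. Next to them, 790 kb from lect2l, a peak open in both populations had 8.67 in DP-R1hi and 7.88 in DP-R1lo. The peak beyond it, at 806 kb, was again ARE-specific with DP-R1hi at the lowest value. Both directions therefore alternated here within about 20 kb.

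Several intervals held distal peaks of 1 direction only, where listed peaks nearer to a TSS are not counted. Between igfbp5b, which encodes an insulin-like growth factor binding protein, and zgc:92380 on chromosome 9, all 7 were ARE-specific (-5.04 to -2.10). Between eno1a, a glycolytic enolase, and noc2l on chromosome 23, all 7 were ARE-specific (-5.36 to -2.24), and in GRCz12tu rerea and samd11 lie between these genes. On chromosome 20, 5 ARE-specific peaks sat within 19.24 kb, 373 to 392 kb from bloc1s2, with means of 5.23 to 7.0 in DP-R1lo. The 4 peaks of a chromosome 15 interval bounded by zgc:158328 and rhbdd1 were ARE-specific as well (-5.40 to -2.49, 3 of them with DP-R1hi at the lowest value), and mecom, a zinc finger transcription factor required for blood stem cells in mice, is among the genes between in the newer assembly. No listed peak had mecom as its nearest gene, but mecom has only model transcripts in that assembly. A gene whose TSS is missing from the authors' transcript set cannot be named as nearest, so no conclusion follows. Nearer listed peaks, within 50 kb of the TSS or not annotated as intergenic, went both ways beside these intervals. zgc:92380 and rhbdd1 had 1 HE-specific each, noc2l 1 HE-specific and 2 ARE-specific, and igfbp5b, eno1a, zgc:158328 and bloc1s2 1 ARE-specific each.

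Other intervals held HE-specific distal peaks only, again without counting nearer listed peaks. Between tspan34, a tetraspanin, and si:ch211-114l13.9 on chromosome 1, all 6 peaks were HE-specific (1.88 to 6.72) over 90.48 kb. Between gba3 and dhx15, an RNA helicase, on chromosome 7 all 4 were HE-specific (2.61 to 4.6), and ppargc1a, a coactivator of mitochondrial biogenesis, lies between in GRCz12tu. All 4 peaks 212 to 399 kb upstream of lppr5b on chromosome 24 were HE-specific (0.89 to 3.60), as were the 4 between trap1, a mitochondrial chaperone, and cbx2, a Polycomb subunit, on chromosome 3 (1.4 to 3.54). Apart from 2 peaks near si:ch211-114l13.9 and 1 near dhx15, none of these stood at the lowest value in DP-R1lo. Not all of the flanking genes are neighbours in GRCz12tu, where 40 protein-coding genes lie between trap1 and cbx2. Between tspan34 and si:ch211-114l13.9 there are 33.

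**Figure D4:**
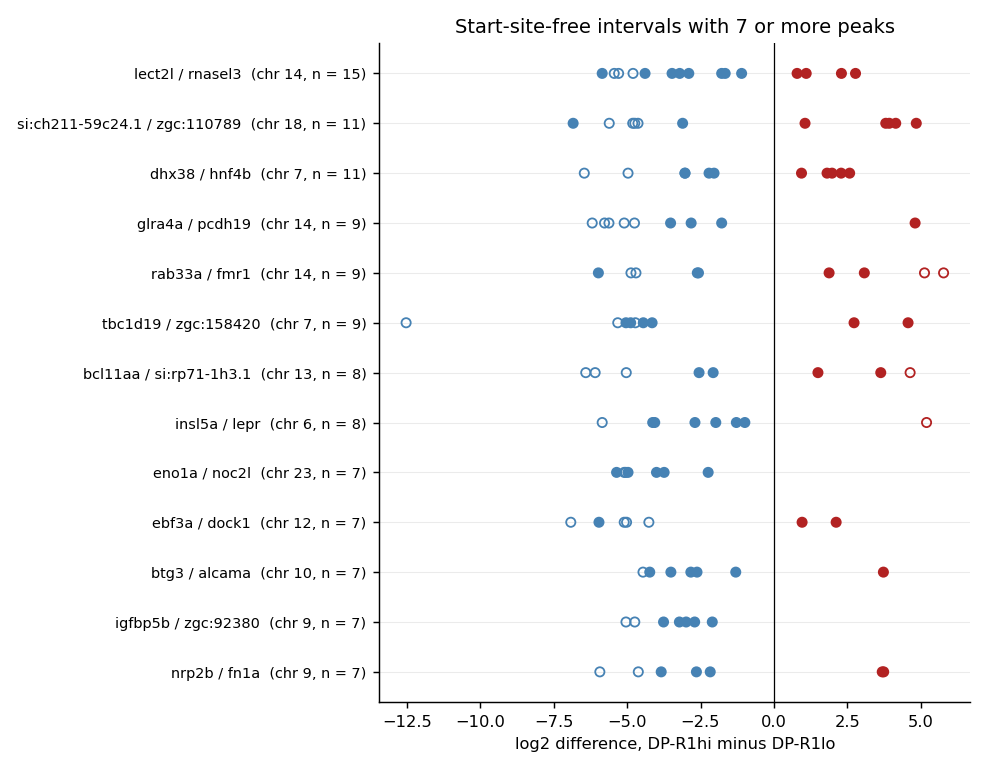
Log2 difference (DP-R1hi minus DP-R1lo) of every distal intergenic peak in the 13 TSS-free intervals with 7 or more, named by their flanking genes. Open circles had the less open population at its lowest value, and 2 of the 13 intervals, eno1a / noc2l and igfbp5b / zgc:92380, hold distal peaks of 1 direction only.

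The nearest genes numbered 532, of which 318 had 1 distal peak and 101 had 3 or more. In 235 of them (44.2%) a further listed peak with the same nearest TSS lay within 50 kb of it or was not annotated as intergenic. Peaks in exons or introns counted at any distance and need not lie in the named gene. Where such a near peak existed, HE-specific distal peaks had only HE-specific near peaks in 41.8% of 165 cases and only ARE-specific ones in 39.4%. For the 230 ARE-specific distal peaks the shares were 35.2% and 49.6%, beside 38.8% and 49.7% over all genes with a near peak. The units differ, as a gene counts here once per distal peak, but only once among all genes. Near peaks of both directions were thus common beside distal peaks of either direction.

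Sorted by the known roles of the nearest gene, the endothelial and vascular genes had mostly ARE-specific distal peaks. They had 30, of which 6 (20.0%) were HE-specific and 24 ARE-specific, with a median difference of -3.55 against -1.89 over all listed peaks. Other listed peaks of these genes were as one-sided, 17.7% of 198 being HE-specific. Leaving out peaks at the lowest value gave 6 and 13, and keeping the peak of largest difference per gene gave 2 and 14. The gene lists were drawn up with earlier results of these data known, so these counts only describe the peaks. This list holds the protocadherin genes pcdh17, with 1 HE-specific and 3 ARE-specific distal peaks, and pcdh10a, with 1 HE-specific. Other protocadherin genes, among them pcdh10b, were counted with the adhesion genes.

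The arterial ligand gene efnb2a, whose product Ephrin-B2 marks arteries, had 3 distal peaks on chromosome 9. The peak 236 kb from the TSS had 6.36 in DP-R1hi and 3.59 in DP-R1lo (2.77), whereas the peaks at 501 and 512 kb had 2.02 and 3.05 in DP-R1hi against 5.61 and 5.89 in DP-R1lo (-3.59 and -2.84). Both directions thus occurred on 1 side of a single arterial gene. None of these 3 values stood at the floor.

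Between nrp2b, a co-receptor for semaphorins and VEGF, and fn1a, which encodes fibronectin, 5 of 7 peaks were ARE-specific. The peak 459 kb from nrp2b was the most open, with 7.19 in DP-R1hi and 9.36 in DP-R1lo (-2.17). The HE-specific peaks were at 307 kb from nrp2b (5.04 and 1.3, difference 3.74) and 214 kb from fn1a (6.54 and 2.85, difference 3.69). According to gene order in GRCz12tu, the polarity gene pard3bb lies in this interval.

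The angiopoietin genes, ligands of the endothelial receptor Tie2, had ARE-specific distal peaks only. Peaks of angpt2b, at 253 and 390 kb, had the lowest value and 2.42 in DP-R1hi against 5.50 and 5.49 in DP-R1lo. The angpt1 peak at 155 kb stood at the lowest value in DP-R1hi and at 4.62 in DP-R1lo. By contrast, 3 listed angpt1 peaks in introns or just upstream of the TSS were HE-specific (1.48 to 3.03). Single ARE-specific peaks with DP-R1hi at the lowest value lay near klf6a (-5.83), foxc1a (-5.69) and sema3e (-4.36), and one off the floor near adgrl4 (-2.95), an adhesion receptor of endothelium.

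nr2f2, a nuclear receptor that specifies venous identity, had 3 ARE-specific distal peaks (-5.64 with DP-R1hi at the lowest value, -3.92 and -3.46). By contrast, its only listed peak within 50 kb of the TSS was HE-specific, with 5.07 in DP-R1hi and 0.71 in DP-R1lo (4.36). In the interval upstream of nr2f2, 5 further ARE-specific peaks were assigned to si:ch211-147m20.3, with 4.37 to 7.64 in DP-R1lo. As nr2f2 is also a marker of veins, its 6 listed peaks of either distance, 5 of them ARE-specific, belong to the markers of other cells, of which 2 peaks were HE-specific and 6 ARE-specific over 3 of 5 genes. Among all listed peaks, 40.8% were HE-specific and the rest ARE-specific. Peaks of the markers of ARE and endothelium were ARE-specific in 17 of 21 cases. Of these, 5 came from kdrl, whose reporter marks endothelium in both populations. The exceptions were the only notch1b peak, 2 of 4 hey2 peaks and 1 of 4 efnb2a peaks. Those of the HE markers were HE-specific in 6 of 7, all from myb, gfi1aa and gfi1ab, whereas the tal1 peak was ARE-specific. No peak was listed for runx1, tbx20, gata2b, myod1 and cdh17. What venous cells contributed was not tested. mef2cb, a transcription factor of endothelium and heart, and the protocadherin gene pcdh10a were the genes of the endothelial and vascular list with HE-specific distal peaks only (3.28 and 4.05). By contrast, all 5 listed mef2cb peaks in the gene or within 50 kb of its TSS were ARE-specific (-5.48 to -1.46).

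Haematopoietic genes had 26 distal peaks, 12 HE-specific (46.2%) and 14 ARE-specific, with a median difference of -2.64, beside 47.5% HE-specific among 120 other listed peaks of these genes. Without those at the lowest value 9 were HE-specific and 3 ARE-specific, and the median turned to 1.86, so no direction can be given for this group. bcl11aa, a repressor known for silencing fetal globin in mammals, had HE-specific peaks at 154 kb (7.72 and 6.22 in DP-R1hi and DP-R1lo) and 226 kb (6.21 and 2.57), and at 362 kb a peak with the lowest value in DP-R1hi and 4.89 in DP-R1lo. Listed bcl11aa peaks in introns were 1 HE-specific (2.71) and 2 ARE-specific (-4.72 and -4.91, both with DP-R1hi at the lowest value). csf3r, the G-CSF receptor of myeloid cells, had 1 HE-specific distal peak at 289 kb (6.94 in DP-R1hi and 2.5 in DP-R1lo). For rag2, needed for lymphocyte receptor rearrangement, peaks at 486 and 654 kb differed by 1.73 and 3.21. Its remaining listed peak, near the TSS, was ARE-specific (-5.31), with DP-R1hi at the lowest value. Distal peaks of sall4, a pluripotency factor, and trps1, a GATA-type zinc finger factor, were HE-specific (1.98 for sall4, 4.08 and 6.43 for trps1, the latter with DP-R1lo at the lowest value). Listed trps1 peaks within 50 kb of its TSS or not annotated as intergenic were 1 HE-specific and 3 ARE-specific.

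Other genes of the haematopoietic list went the opposite way or both ways. itga2b, the platelet and stem cell integrin CD41, had a distal peak at 313 kb with the lowest value in DP-R1hi and 4.34 in DP-R1lo. Listed itga2b peaks within 50 kb of its TSS went both ways (2.01, and -5.96 with DP-R1hi at the lowest value). The gata3 peaks, beside a gene required for T cells, lay at 405 kb (lowest value in DP-R1hi, 5.59 in DP-R1lo) and 257 kb (4.53 in DP-R1hi, lowest value in DP-R1lo). Each gata3 peak thus stood at the floor in the other population. The myca peak at 218 kb, near a zebrafish Myc gene, had 4.46 in DP-R1hi and 6.61 in DP-R1lo, and all 3 of ebf3a, an early B-cell factor family member, stood at the lowest value in DP-R1hi. Whether ebf3a itself acts in blood cells was not examined here.

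**Figure D5:**
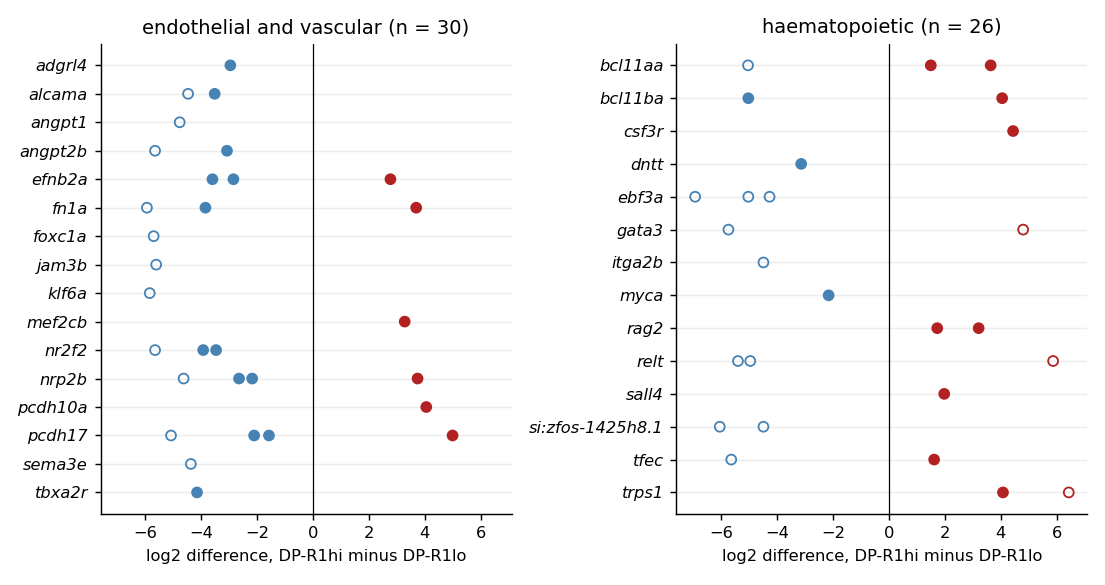
Log2 difference (DP-R1hi minus DP-R1lo) of the distal intergenic peaks whose nearest gene is endothelial and vascular (30 peaks, left) or haematopoietic (26 peaks, right), 1 row per gene. Open circles had the less open population at its lowest value, which applies to 11 of the vascular and 14 of the haematopoietic peaks.

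Developmental transcription factors had 69 distal peaks, 38 (55.1%) HE-specific and 31 ARE-specific, with a median difference of 1.20, while 29.8% of the 386 other listed peaks of these genes were HE-specific. Without peaks at the lowest value 32 were HE-specific and 20 ARE-specific. With only the peak of largest difference per gene the counts were 16 and 21 and the median -1.47, so the direction of this group depended on which peaks were counted. hnf4g had 1 HE-specific and 4 ARE-specific distal peaks. By contrast, hnf4b, a nuclear receptor of endoderm, had HE-specific peaks in 4 of 5 cases and mespbb, a somite factor, in 4 of 5. At hnf4b these had 6.93 to 8.47 in DP-R1hi and 5.06 to 7.53 in DP-R1lo, so both populations were open. All 3 distal peaks of pparab, a regulator of fatty acid use, were HE-specific, as were both of gata4, the heart and endoderm GATA factor (5.77 and 2.74 at 156 kb, 8.99 and 7.08 at 161 kb). The gata4 peak within 50 kb of the TSS was ARE-specific (-5.45), with DP-R1hi at the lowest value. sox9a, a factor of cartilage, had an ARE-specific peak with 6.01 in DP-R1lo and the lowest value in DP-R1hi, as did 1 of the 2 ARE-specific peaks of tbx1, a factor of the pharynx, with 5.70 in DP-R1lo. The listed sox9a peak within 50 kb of its TSS was HE-specific (3.55).

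Adhesion and guidance genes had 43 distal peaks, 13 (30.2%) HE-specific and 30 ARE-specific, with a median of -3.87, while 26.8% of the 127 other listed peaks of these genes were HE-specific. Off the floor 11 were HE-specific and 14 ARE-specific. All 4 peaks of cdh15, a muscle cadherin, and all 4 of pcdh19, a protocadherin, were ARE-specific, and for cdh15 they lay on both sides of the TSS at 171 to 211 kb with 5.14 to 6.19 in DP-R1lo. pcdh10b had 3 HE-specific and 2 ARE-specific peaks. Both peaks of ctnna1, the actin-linking alpha-catenin, stood at the lowest value in DP-R1hi. Listed ctnna1 peaks within 50 kb of its TSS or not annotated as intergenic were 2 HE-specific (5.12 and 1.5) and 2 ARE-specific (-3.31 and -1.47).

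Signalling genes had 23, 10 (43.5%) HE-specific and 13 ARE-specific, with a median of -2.39 that turned to 0.97 without peaks at the lowest value, while 22.1% of the 136 other listed peaks of these genes were HE-specific. dock4b, an activator of Rac, had a peak of 364 bp with 12.03 in DP-R1hi and 8.09 in DP-R1lo, among the highest of all distal peaks. spry2, an inhibitor of receptor tyrosine kinase signalling, and scube3, a secreted factor, had HE-specific peaks (3.88 for spry2, 3.10 and 1.69 for scube3). porcnl, required to lipidate Wnt ligands, and fzd7a, a Wnt receptor, had ARE-specific ones (-6.67, with DP-R1hi at the lowest value, and -2.76 for porcnl, -4.70 for fzd7a). The remaining 734 distal peaks, nearest to genes in no list, were HE-specific in 43.7%.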

How the data were processed

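ATAC-seq libraries of 5 sorted populations, 3 each, and genomic DNA made up the 16 samples. The authors trimmed reads with Trimmomatic 0.32, aligned them to GRCz10 with BWA 0.7.12, called peaks with MACS2 against genomic DNA, removed 1 replicate each of DP-R1hi and DP-R1lo, ran DiffBind (edgeR) on the others, annotated with HOMER 3.0 and kept peaks beyond a log2 fold change of 0.7. The deposited lists hold log2 values, namely the authors' mean log2 concentration per population, which averages replicates, so that DP-R1hi and DP-R1lo have 1 value each per peak, and neither depth nor replicate spread is known. The lists have no header, and the overall column equalled the log2 of the mean of both populations within 0.01. The authors' fold changes were not used.

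Peaks of both lists were pooled, and intergenic ones with an absolute distance over 150000 bp were kept. TSS-free intervals were built from the listed distances, checked on simulated start sites. For 2185 genes with several listed peaks the start site could be rebuilt from the same distances, and 0 fell inside an interval. Both checks use the nearest-TSS rule from which the intervals were built. They therefore test the computation only and lend the intervals no further support. Of 532 nearest genes, 508 accessions (95.5%) matched the GRCz12tu RefSeq table, which was used for names and gene order. Peaks were named if they had the largest difference or distance, were widest, most open in both populations, next to the 150 kb limit, nearest to a listed gene, or one of at least 3 of 1 gene. Members and lists were chosen with earlier results of these data known. No test was run, since peaks are not replicates. No sequence was analysed, as no GRCz10 genome was at hand. Python 3.11.15, pandas 2.3.3, numpy 2.4.6 and matplotlib 3.10.9 were used.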

Additional observations from a re-analysis of the deposited data

How the results depend on the processing

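The share of distal peaks more open in DP-R1hi, 43.2%, ran from 40.1% to 45.3% under 11 of 13 alternatives, which overlap in their peaks. That range describes the choices made and is not an error of the share. The share was 38.6% among peaks with an absolute difference of at least 2 and 51.0% without peaks at the lowest value. The number of peaks, 925, was 1561 beyond 100 kb, 564 beyond 200 kb and 262 beyond 300 kb, 532 with 1 peak per nearest gene, and, chosen after seeing the data, 422 with 1 peak per TSS-free interval and 318 nearest to genes with 1 distal peak. The median absolute difference ranged from 2.7 to 4.12 for HE-specific and from 3.05 to 4.93 for ARE-specific peaks, lowest without peaks at the lowest value and highest with 1 peak per TSS-free interval. The share at the lowest value ranged from 19.1% to 32% and from 39.7% to 54.4%. Where 1 peak was kept per nearest gene or per interval, it was the one with the largest absolute difference. That choice by itself favours large medians and peaks at the lowest value. No paired analysis was possible because each population has a single mean. For the same reason no replicate could be left out.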

Other observations

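MicroRNA genes other than mir459 were also nearest to distal intergenic peaks. Near mir9-7, a copy of a microRNA known from neural progenitors, 4 of 5 distal peaks were HE-specific, at 201 to 288 kb, with 7.27 to 7.86 in DP-R1hi and 5.81 to 6.74 in DP-R1lo. The fifth, at 153 kb, stood at the lowest value in DP-R1hi and at 4.73 in DP-R1lo. Both peaks of mir203a, known from skin, stood at the lowest value in DP-R1hi with 5.90 and 5.00 in DP-R1lo, whereas both of dre-mir-31 were HE-specific (1.59 and 4.99, the latter with DP-R1lo at the lowest value). In GRCz12tu, dre-mir-205 lies inside plxna2, a semaphorin receptor gene, and its 3 distal peaks differed by 3.19, -3.34 and -3.13.

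By chromosome, distal peaks made up between 4.15% (chromosome 15) and 16.2% (chromosome 4) of listed peaks. The HE-specific share was highest on chromosome 25, with 16 of 25 (64.0%, against 46.0% of all listed peaks there), followed by chromosome 4, with 33 of 53 (62.3%, against 44.8%). It was lowest on chromosome 18, with 12 of 47 (25.5%, against 36.6%).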
